A study of Mus musculus with 3 samples.

Results

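Ly6a, Ly6c2, Ly6e and Thy1 encode small surface proteins held in the membrane by a glycosylphosphatidylinositol (GPI) anchor, and their RNA was followed in NK cells sorted from lung and blood of naive and of tumor-bearing mice. The 4 genes were picked by symbol from the 25906 genes of the count files with their levels in these libraries already known. Their levels and the ratios between groups are therefore descriptions, and no test is given for them. All mice were wild-type females 9 weeks of age, and the treated ones had received 100000 PyMT mammary tumor cells into a vein either 6 h or 14 days before they were killed. This dose is that of the labels and the methods, while a figure legend of the study gives a higher one. The naive group received no tumor cells. Viable cells positive for NK1.1 and NKp46 were taken by sorting, and the lung and blood cells of a time point were tagged with different hashtag antibodies and run together in 1 droplet library. With 3 libraries and 2 tissues there were 6 groups, each from 1 library. The groups came from 5 mice each, in a single experiment, and the counts do not tell the mice of a library apart. No error between mice can therefore be stated, and all intervals below cover counting error only. Those of levels and ratios take each UMI as independent and leave out the spread between cells.

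Ly6 proteins share a compact, cysteine-rich domain and end in a signal that is exchanged for a GPI lipid anchor in the endoplasmic reticulum, so that the mature protein sits on the outer membrane leaflet without a cytoplasmic tail. Ly6a encodes Sca-1, best known as a marker of hematopoietic stem cells and also carried by endothelial cells and activated lymphocytes. Ly6c2 encodes a Ly-6C protein, a surface marker of monocytes, memory T cells and mature NK cells. Ly6e encodes a broadly expressed Ly6 protein that several cell types induce in response to interferon. Thy1 (CD90) is not a Ly6 gene and encodes an immunoglobulin-like GPI-anchored protein of T cells, innate lymphoid cells and part of the NK cells.

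On mouse build GRCm38, with the GENCODE annotation, the 3 Ly6 genes lay in 1 stretch of chromosome 15 with Ly6e at chr15:74955051-74959905 on the plus strand, Ly6a at chr15:74994877-74998031 on the minus strand and Ly6c2 at chr15:75108158-75111970 on the minus strand. Ly6c1, the neighbour most like Ly6c2, lay between Ly6a and Ly6c2 at chr15:75044018-75048830 on the minus strand. Thy1 lay apart at chr9:44043384-44048579 on the plus strand. Each of the 4 genes has 4 exons in its main transcript, of which 3 hold coding sequence, and none overlaps another gene. The coding sequences predict 134 residues for Ly6a, 131 for Ly6c2, 136 for Ly6e and 162 for Thy1, before the signal peptide and the anchor signal are removed. The first 300 coding bases of Ly6c2 and Ly6c1 and the first 240 of Ly6a, from the same annotation, are printed here. They show how alike the neighbours are, not how far reads from the 3′ end tell them apart. Capitals mark, in the lines of Ly6c2 and Ly6c1, the 7 bases at which both differ and, in the line of Ly6a, the 43 bases that differ from Ly6c2.
Ly6c2: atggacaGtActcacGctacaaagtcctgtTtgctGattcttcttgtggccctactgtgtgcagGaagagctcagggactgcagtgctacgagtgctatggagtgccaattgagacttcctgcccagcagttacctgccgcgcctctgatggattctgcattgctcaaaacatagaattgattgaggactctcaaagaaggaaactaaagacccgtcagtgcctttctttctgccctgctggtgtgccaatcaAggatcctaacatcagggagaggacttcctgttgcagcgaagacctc
Ly6c1: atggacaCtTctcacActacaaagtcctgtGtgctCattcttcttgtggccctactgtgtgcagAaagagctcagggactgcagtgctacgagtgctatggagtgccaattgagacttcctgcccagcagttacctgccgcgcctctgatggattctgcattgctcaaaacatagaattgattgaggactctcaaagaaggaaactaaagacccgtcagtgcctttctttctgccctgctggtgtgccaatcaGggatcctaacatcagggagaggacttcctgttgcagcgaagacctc
Ly6a: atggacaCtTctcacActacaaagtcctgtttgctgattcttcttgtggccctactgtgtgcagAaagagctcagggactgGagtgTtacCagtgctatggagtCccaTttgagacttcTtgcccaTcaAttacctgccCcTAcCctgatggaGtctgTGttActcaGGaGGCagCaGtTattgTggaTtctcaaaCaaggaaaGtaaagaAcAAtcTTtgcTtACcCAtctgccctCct
Over the whole coding sequence, Ly6c2 and Ly6c1 were identical at 387 of 396 bases (97.7%). Ly6c2 was 81.7% identical to Ly6a and 51.3% to Ly6e. Of the 733 windows of 90 bases along the Ly6c2 transcript, 134 (18.3%) occurred letter for letter in Ly6c1, and 35 of the 400 windows nearest the 3′ end (8.75%) did. Windows of Ly6a, Ly6e and Thy1 had no such match in another gene. Reads from the shared windows of Ly6c2 cannot be assigned to 1 gene, and the counts of Ly6c2 and Ly6c1 are uncertain to that extent. Ly6c1 itself was counted at 53 UMIs (unique molecular identifiers, each counting 1 captured RNA molecule) in 14-day lung and at 1 to 4 UMIs in each of the other 5 groups. Of the 53 UMIs, 48 lay in 1 cell, which also held 91 UMIs of endothelial genes.

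After the filters, the groups held between 2069 and 4680 cells and between 16936897 and 35922737 summed UMIs, with medians of 5909.5 to 7524 UMIs per cell. Naive lung was the shallowest group per cell and 14-day blood the deepest. Pairs of libraries shared 6 to 16 cell barcodes. The methods name lung and blood and the tags B0304 and B0306 in parallel order, and the tissue of a cell rests on that order. All 6 NK cell markers (Ncr1 and Nkg7 among them) were found in every group, at least 1 of them in 99.9% or more of the cells, and they summed to 5308 to 7933 CPM (UMIs per 1000000 summed UMIs of a group). Erythroid markers summed to 90.002 CPM in 14-day lung, against 1.48 to 2.57 CPM in the other groups. A UMI of any of them was found in 0.867% of 14-day lung cells and in 1.69% of naive blood cells. In 14-day lung the hemoglobin gene Hbb-bs alone gave 50.7 CPM, but over all groups it was found in 0.0379% of cells. Alas2, at 1.03 CPM in 14-day lung, was found in 1.14% of all cells. The 6 endothelial markers, of which Pecam1 gave the larger part, summed to 86.3 CPM in 14-day lung and to 49.9 to 69.9 CPM elsewhere, and Cdh5 and Cldn5 were at 0 in the other 5 groups. T cell markers, led by the receptor constant gene Trbc1, which NK cells also transcribe, lay at 479 to 582 CPM. Myeloid markers lay at 54.4 to 148 CPM, B cell markers at 35.9 to 56.3 CPM and ILC1 markers at 76.2 to 152 CPM, while epithelial and platelet markers stayed below 2 CPM in every group.

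The 4 genes followed different courses over the 6 groups. Ly6e was lowest in naive lung, at 137 CPM (95% exact Poisson interval 133 to 142), and highest in 14-day lung, at 436 CPM (428 to 443). Between them lay naive blood at 186 CPM (181 to 191), 6 h lung at 253 (248 to 258), 14-day blood at 285 (277 to 294) and 6 h blood at 309.8 (302 to 317). No neighbours in this order overlapped within counting error, and the highest group stood 3.17-fold above the lowest. Ly6c2 went another way, with its lowest level in the same 14-day lung cells in which Ly6e was highest, at 352 CPM (345 to 359). It was highest in 14-day blood of that library, at 582 CPM (570.1 to 593). The other groups lay at 396 CPM in naive blood (389 to 404), 425 in 6 h blood (417 to 434), 461 in 6 h lung (454 to 468) and 468 in naive lung (459 to 477), of which naive and 6 h lung overlapped. The whole range of Ly6c2 was 1.65-fold.

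Thy1 had the narrowest range, 1.52-fold from naive lung at 43.2 CPM (40.6 to 46.0) to 6 h blood at 65.5 CPM (62.2 to 69.0). Naive blood at 59.2 CPM (56.5 to 62.1), 14-day lung at 57.1 (54.3 to 59.9) and 6 h lung at 56.2 (53.8 to 58.7) could not be told apart by counting error, and 14-day blood lay under them at 49.9 (46.6 to 53.4). Ly6a was rare outside 1 group. It gave 370 UMIs in 14-day lung, 13.1 CPM (11.8 to 14.5), and between 12 and 26 UMIs in each of the others. Those lay at 0.4003 CPM in naive blood (0.207 to 0.699), 0.724 in 6 h lung (0.473 to 1.06), 0.906 in 6 h blood (0.553 to 1.40), 0.937 in naive lung (0.587 to 1.42) and 1.18 in 14-day blood (0.721 to 1.82), each overlapping its neighbours in that order. Since a 3′ UMI count is not scaled by transcript length, the levels of the 4 genes are not compared with each other.

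**Figure D1:**
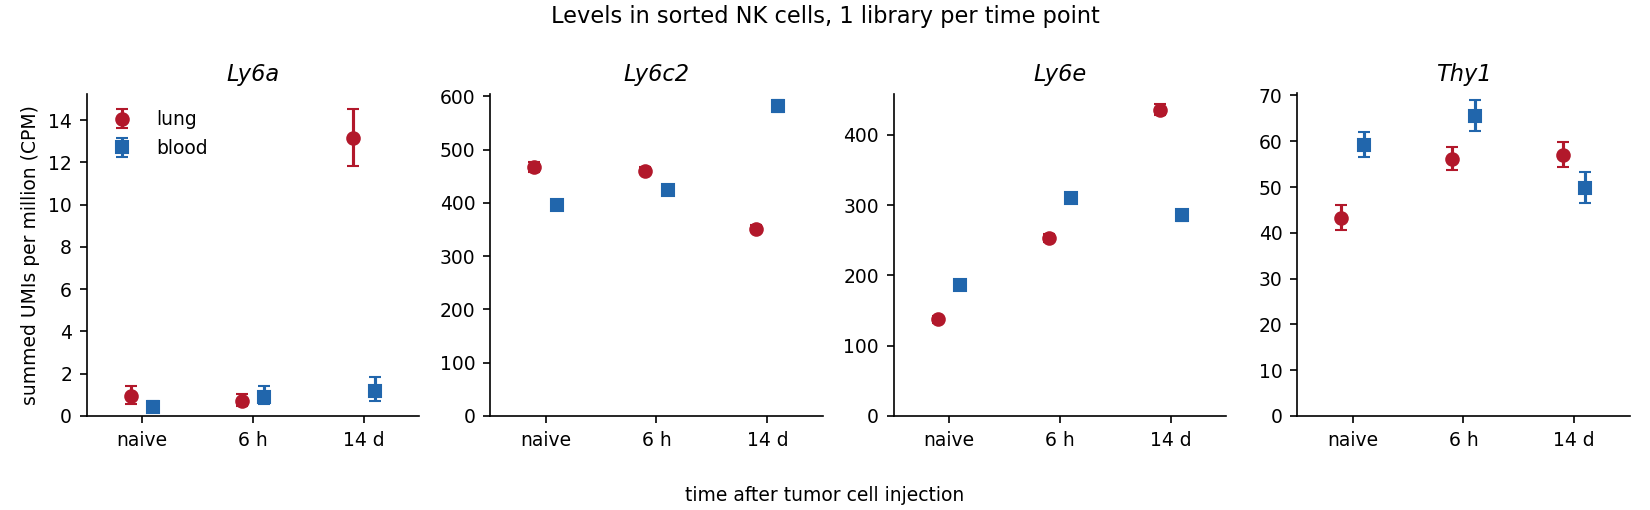
Summed UMIs per 1000000 (CPM, vertical axis, a separate scale from 0 for each gene) in naive, 6 h and 14-day cells of lung (circles) and blood (squares), with 95% Poisson intervals that cover counting error only. Ly6e climbs in lung from 137 to 436 CPM, Ly6c2 splits between lung (352) and blood (582) at 14 days, and Ly6a leaves the baseline in 14-day lung alone.

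The lung was compared with the blood of the same library, over genes of at least 50 CPM in the higher of both groups. Ly6c2, Ly6e and Thy1 met this limit in every comparison and Ly6a in none. A ratio past 1.5-fold was counted as called, in place of a test. In naive mice 0 of the 3 genes were past 1.5-fold, while 7.67% of 4067 genes were higher in lung and 2.21% lower. The log2 ratio was 0.24 for Ly6c2 (0.20 to 0.28), -0.44 for Ly6e (-0.50 to -0.37) and -0.45 for Thy1 (-0.57 to -0.34), so Ly6c2 was slightly higher in lung and the other pair slightly higher in blood. At 6 h the signs were the same and the ratios nearer to 0, at 0.12 (0.08 to 0.15), -0.29 (-0.34 to -0.25) and -0.22 (-0.32 to -0.12). Again 0 of 3 were called, beside 7.19% of 3948 genes called higher and 1.8% called lower in lung.

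At 14 days all 3 signs were the opposite. Ly6c2 was 1.65-fold higher in blood than in lung (log2 lung over blood -0.73, -0.77 to -0.69), and Ly6e was 1.53-fold higher in lung (0.61, 0.56 to 0.66). These were 1 gene called higher and 1 called lower of 3, where 6.06% and 3.4% of 3711 genes were. Thy1, at 0.19 (0.07 to 0.32), was not past 1.5-fold, and with every cell thinned to 3000 UMIs it was at 44.1 CPM in lung and 41.7 in blood. The call of Ly6e sat close to the limit. Its log2 ratio was 0.50 with every cell weighted equally, 0.51 with every cell thinned to 3000 UMIs and 0.56 without the 5% deepest cells, all under 1.5-fold, while Ly6c2 stayed past it in these settings.

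Over time, Ly6e was the member that was past 1.5-fold in each comparison with naive cells. At 6 h it stood at 253 against 137 CPM in lung, 1.84-fold higher (log2 0.88, 0.82 to 0.94), and at 309.8 against 186 CPM in blood, 1.66-fold higher (0.74, 0.68 to 0.79). Few genes were past 1.5-fold at 6 h. In lung 0.231% of 3889 genes were called higher (9 genes, Ly6e among them) and 0% lower, and in blood 0.128% of 3910 genes were called higher (5 genes, again with Ly6e) and 0.0256% lower. Ly6c2 was at -0.02 in lung (-0.06 to 0.01) and 0.10 in blood (0.06 to 0.14), so that its lung difference was within counting error. Thy1 was at 0.38 (0.27 to 0.49) and 0.15 (0.04 to 0.25), higher at 6 h in both tissues but within 1.5-fold.

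At 14 days the Ly6e level in lung was 3.17-fold that of naive lung (log2 1.66, 1.61 to 1.72), and 99.6% of the genes had a lower ratio. It was the 1 called gene of the 3, where 4.47% of 3939 genes were higher and 13.4% lower. Ly6c2 was lower in 14-day lung, at -0.41 (-0.45 to -0.37), and Thy1 higher, at 0.40 (0.29 to 0.51). The median gene shifted by -0.25 in the unthinned comparison of 14-day over naive lung. Relative to it Ly6e was at 1.92, Ly6c2 at -0.16 and Thy1 at 0.65, which put Thy1 past 1.5-fold on that unthinned scale. In blood the same comparison gave 0.62 for Ly6e (0.56 to 0.67), the 1 called gene, 0.55 for Ly6c2 (0.51 to 0.59), just short of 1.5-fold, and -0.25 for Thy1 (-0.37 to -0.13). Here 0.564% of 3902 genes were called higher and 3.02% lower, and the median gene was at -0.20. Relative to that median Ly6e was at 0.82, Ly6c2 at 0.75 and Thy1 at -0.05, so Ly6c2 was then past 1.5-fold and Thy1 no longer lower than other genes. The Ly6e call in blood ended when cells with a rarely found marker of another cell type were left out (0.58) or when free RNA was subtracted at its upper limit (0.58). Ly6c2 thus had opposite signs in lung and blood of the 14-day mice on either scale. The comparisons at 6 h and at 14 days share the naive library, and the difference between the tissues was not tested.

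**Figure D2:**
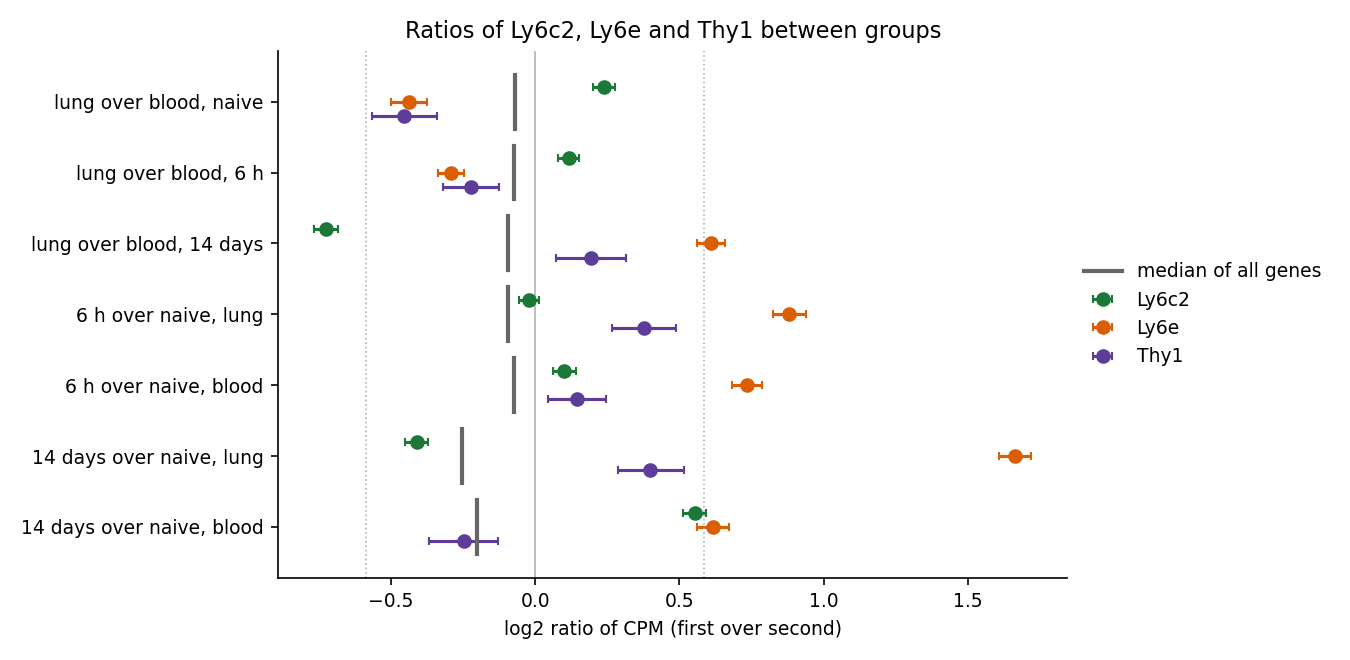
Log2 ratio of CPM (horizontal axis) of Ly6c2, Ly6e and Thy1 in the 7 comparisons, with 95% exact intervals of the counts. Grey bars mark the median of all genes of at least 50 CPM and dotted lines 1.5-fold. The Ly6e ratio of 14-day over naive lung, 1.66, lies farthest out, and all 3 genes lie on opposite sides of 0 in the naive and the 14-day rows of lung over blood.

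Shares of cells with a UMI were taken with every cell thinned to 3000 UMIs, since depth differed between groups. Ly6e was found in 29.0% of naive lung cells (unthinned 43.9%) and in 58.3% of 14-day lung cells (unthinned 77.1%). Naive blood stood at 34.7%, 6 h lung at 44.4%, 6 h blood at 50.1% and 14-day blood at 47.6% (unthinned 52.9, 66.9, 72.8 and 71.3%). The order was that of the levels. Ly6c2 was found in 32.5% of the cells in 14-day lung and in 46.2% in 14-day blood, with 36.3 to 43.3% in the other groups (unthinned 39.1, 53.7 and 42.4 to 49.2%). Thy1 was found in 8.94% of naive lung to 13.6% of 6 h blood cells (unthinned 14.6 to 23.5%). Its share in 14-day lung, 9.70% (8.74 to 10.7), overlapped that of naive lung (8.03 to 9.92). At the limit estimated for free RNA, it could give a UMI to 7.44, 5.28 and 0.951% of the 6 h cells for Ly6c2, Ly6e and Thy1. The shares of the 3 genes lay above this estimated background. No cell type that lacks these genes was in the sort to measure it directly.

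The genes differed in how their UMIs were spread over cells. Ly6c2 RNA was concentrated in part of the cells. No UMI was found in 53.8 to 67.5% of the thinned cells of a group, where a Poisson distribution of the same mean gives 13.5 to 28.9%, and its variance was 4.10 to 5.05 times its mean. The intervals of Ly6c2 levels and ratios leave out this spread and are narrower than sampling of cells would give. Cells with Ly6c2 held 3.64 to 4.34 UMIs on average, and the tenth of the cells with the highest counts held 47.8 to 59.6% of all Ly6c2 UMIs. Ly6e was spread more evenly, with a variance of 1.37 to 1.83 times the mean. Its mean per thinned cell was 0.405 in naive and 1.24 in 14-day lung, and cells with 5 or more UMIs made up 0.139% and 4.61%, so both the share of cells with Ly6e and the count in them were higher at 14 days. Thy1 cells held 1.30 to 1.39 UMIs on average, with a variance of 1.45 to 1.77 times the mean.

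**Figure D3:**
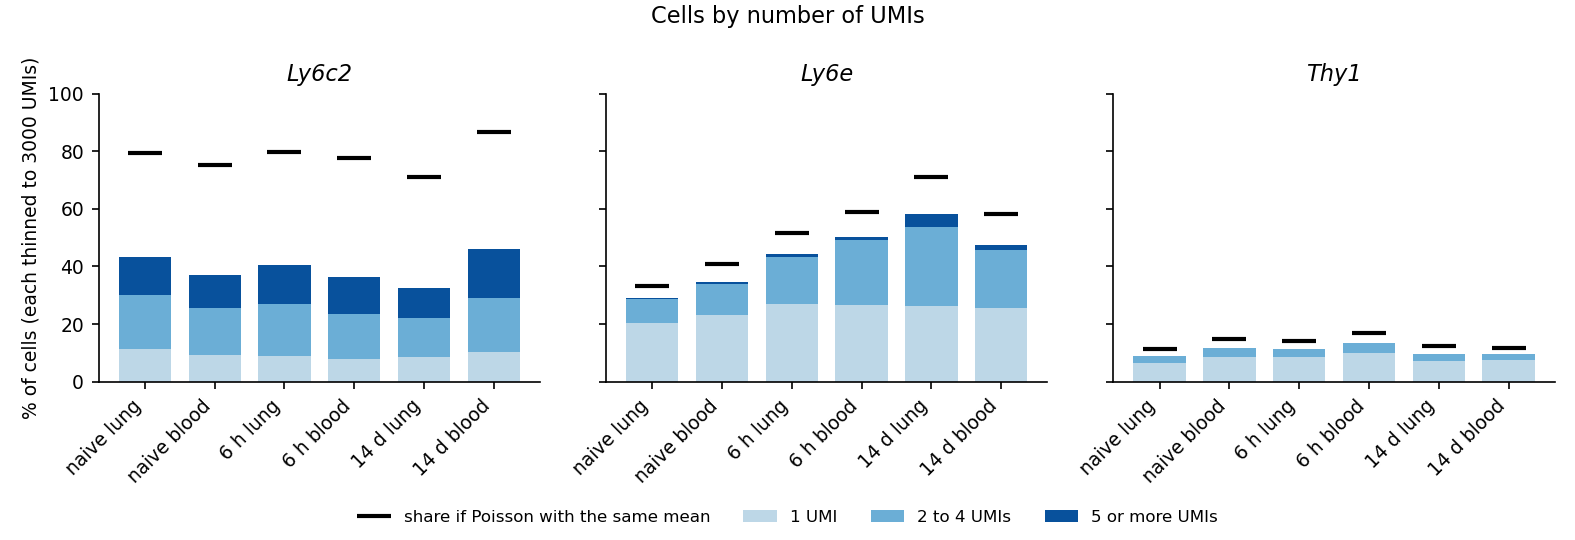
Share of cells (vertical axis, %, each cell thinned to 3000 UMIs) with 1, 2 to 4 and 5 or more UMIs of Ly6c2, Ly6e and Thy1 in the 6 groups. Black marks show the share a Poisson distribution of the same mean would give, and Ly6c2 stays farthest below them, with 53.8 to 67.5% of cells at 0.

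NK cells mature from cells with CD27 to cells with CD11b (Itgam), and the most mature ones carry KLRG1 and CX3CR1. Cells were therefore gated within each group by UMIs of these genes, which are no members, at 3000 UMIs per cell. Ly6c2 was lower, and Ly6e and Thy1 higher, in Cd27+Itgam- than in Cd27-Itgam+ cells in 6 of 6 groups, with every interval on the same side of 0. In naive lung Ly6c2 stood at 276 against 605 CPM (log2 -1.13), and over the groups its ratio was -1.80 to -1.04. Ly6e stood at 275 against 103 CPM in naive lung and at 542 against 297 CPM in 14-day lung, and its ratios were 0.79 to 1.42. Both gates of Ly6e were thus higher at 14 days than in naive lung. Thy1 stood at 78.4 against 27.5 CPM in naive lung, with ratios of 1.04 to 1.77. The study lists Thy1 among the genes of its less differentiated NK cells, a choice made on these libraries, so this is not independent evidence for Thy1.

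Klrg1+Cx3cr1+ cells, set against cells with neither, gave the mirror image. Ly6c2 was higher in them in 6 of 6 groups, with ratios of 0.76 to 1.73, for example 896 against 270.3 CPM in 14-day lung. Ly6e (-1.81 to -0.96) and Thy1 (-2.24 to -0.65) were lower in 6 of 6 groups, Thy1 by least in 14-day blood, where its interval (-1.35 to -0.00591) all but reached 0. The members were paired in cells in the same way. Cells with a Thy1 UMI had less Ly6c2 than cells without, at log2 ratios of -1.32 to -1.02, and more Ly6e, at 0.53 to 1.04, in all 6 groups. Between Ly6c2 and Ly6e the ratio was smaller, -0.46 to -0.02 for Ly6c2 in cells with Ly6e, and in 14-day blood its interval (-0.11 to 0.07) included 0.

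Itga1 (CD49a) and Pmepa1 are genes of tissue residency and of the response to TGF-β. The study names both among genes raised in the tumor-associated NK cells it found in these libraries. The share of cells in this gate and the levels in them are therefore descriptions and not independent evidence. Cells with a UMI of Itga1 or Pmepa1 made up 33.8% of 14-day lung cells (1197 cells) and 7.83% of naive lung cells (281 cells). In naive lung they had 585 CPM of Ly6c2 against 520.3 in the rest, whereas in 14-day lung they had 179 against 533 CPM (log2 -1.58, -1.70 to -1.46). In the other 5 groups this ratio was -0.20 to 0.45. Compared over time within the gate, Ly6c2 of 14-day over naive lung was -1.71 (-1.88 to -1.54) in cells with Itga1 or Pmepa1 and 0.04 (-0.03 to 0.10) in cells with neither. The lower Ly6c2 of 14-day lung was found in the cells with Itga1 or Pmepa1, and those with neither stood within counting error of naive lung, on a scale that is not corrected for the shift of the median gene. For Ly6e the same ratios were 1.70 and 1.45, so it was higher in both kinds of cell. Thy1 stood at -0.08 (-0.54 to 0.41) and 0.01 (-0.22 to 0.23), both intervals with 0. Gated cells are those in which a UMI was caught, so cells without one also include cells that carry the RNA unseen.

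Ly6e and Ly6a were also set against 6 genes that interferon induces (Isg15, Ifit1, Ifit3, Rsad2, Irf7 and Bst2), comparing cells with 2 or more UMIs of them and cells with none. Ly6e was higher in the former, at 746 against 366 CPM in 14-day lung (log2 1.03), and the ratio was 1.15 in naive blood, 0.71 and 0.58 in lung and blood at 6 h and 0.87 in 14-day blood. In naive lung it was 0.32 (-0.04 to 0.67), with 0 in the interval. In cells with none of these UMIs, the log2 ratio of Ly6e in 14-day over naive lung was 1.47. Such cells made up 71.8% of the 14-day lung cells and include cells that carry the 6 RNAs unseen. The part of interferon in the Ly6e level was not tested. Ly6c2 ratios of this gate were -0.33 to 0.34 and had both signs, and so did those of Thy1 (-0.52 to 0.83). Ly6a in 14-day lung stood at 50.4 CPM (37.9 to 65.6) against 2.23 (1.30 to 3.57). Without cells that held rarely found markers of other cell types, described below, it was 34.6 against 2.26 CPM.

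**Figure D4:**
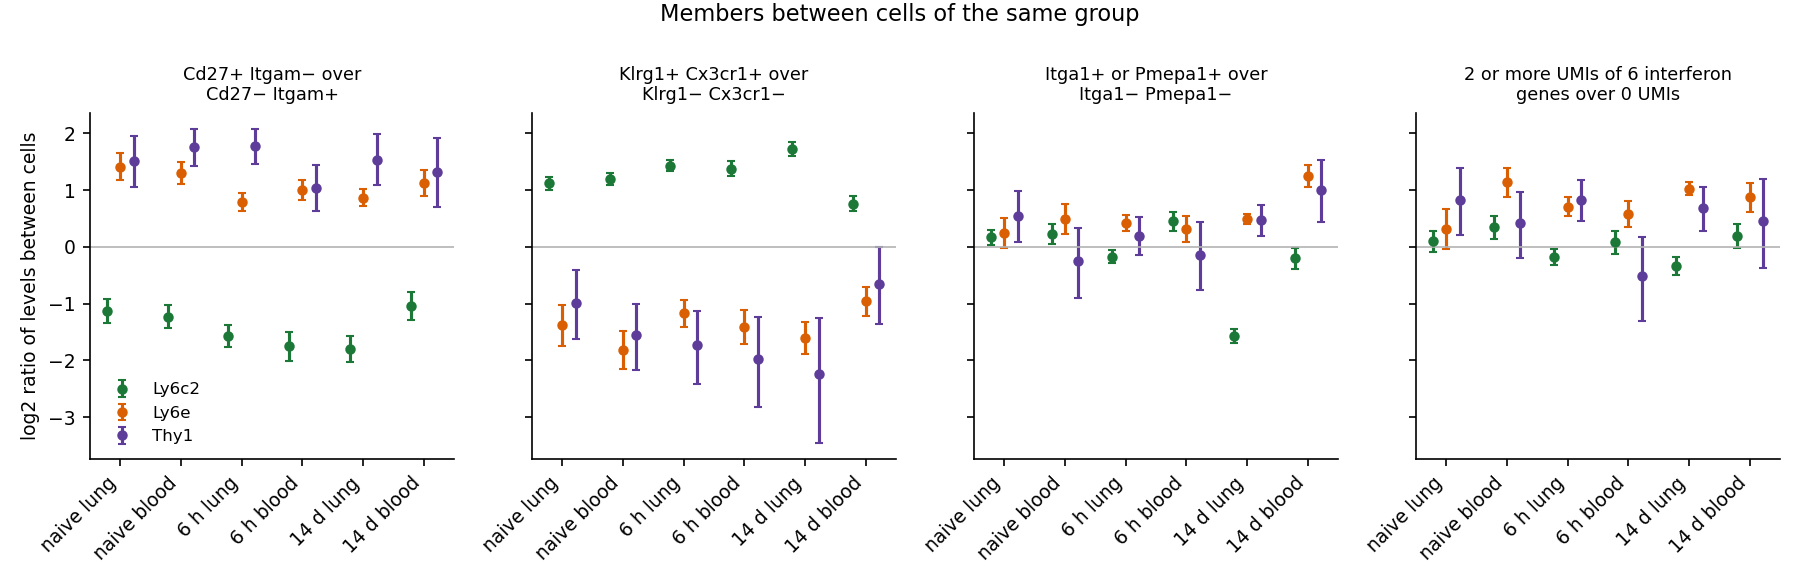
Log2 ratio of Ly6c2, Ly6e and Thy1 (vertical axis) between 2 kinds of cell within each of the 6 groups, for 4 gates, with 95% exact intervals of counts, each cell thinned to 3000 UMIs. Ly6c2 lies on the other side of 0 from Ly6e and Thy1 in the first pair of panels, and in the panel of Itga1 and Pmepa1 it stands at -1.58 in 14-day lung.

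Ly6a was followed cell by cell because so few cells held it. In 14-day lung 101 of 3575 cells had a UMI (2.83%, exact interval 2.31 to 3.42%), of which 55 had 1 UMI, 46 had 2 or more and 21 had 5 or more. In the other groups 5 to 20 cells had one, 0.136 to 0.532%. Thinned to 3000 UMIs the share was 1.27% in 14-day lung and 0.0466 to 0.291% elsewhere, and free RNA at its estimated limit could give 0.161% in the 14-day library. The cells with Ly6a in 14-day lung were deeper, with a median of 11761 UMIs against 6929.5 in the rest. A single cell held 64 of the 370 UMIs (17.3%) together with 91 UMIs of the endothelial genes Cdh5, Cldn5, Kdr and Egfl7, and the level without it was 10.9 CPM. In naive lung 1 cell held 12 of the 22 UMIs, so the naive ratio of lung over blood (1.23, 0.15 to 2.38) rests on it, and without that cell naive lung was at 0.426 CPM.

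Ly6a was also summed without cells that held RNA of other cell types. Cells with a UMI of any of 40 rarely found markers (C1qa, C1qb and C1qc of macrophages among them) were left out, a choice made after the data were seen. They made up 264 cells (7.38%) of 14-day lung and held 109 Ly6a UMIs (29.5%). The remaining 85 cells with Ly6a (2.57%) gave 261 UMIs, 10.2 CPM (9.01 to 11.5). The log2 ratio of 14-day over naive lung was 3.81 (3.19 to 4.50) with all cells and 3.39 (2.76 to 4.09) without them, and that of lung over blood at 14 days 3.48 (2.83 to 4.20) and 4.19 (3.24 to 5.34). In 14-day blood free RNA at its estimated limit could make up 45.4% of the Ly6a UMIs. There the ratio over naive blood was 1.56 (0.46 to 2.73) with all cells and 0.42 (-1.004 to 1.79) without those cells. Leaving these cells out was 1 choice of many, and the part of other cell types in the Ly6a level was not tested beyond it. For the other members the same choice gave 14-day over naive lung at 1.65 for Ly6e, -0.39 for Ly6c2 and 0.34 for Thy1. At 6 h over naive the ratio of Ly6a was -0.37 (-1.25 to 0.52) in lung and 1.18 (0.08 to 2.34) in blood. The blood ratio rests on 1 cell, which held 10 of the 20 UMIs of 6 h blood, whose level without it was 0.453 CPM.

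The 85 cells of 14-day lung that kept Ly6a carried NK cell genes, with Ncr1 (NKp46) in 97.6% of them against 93.6% of the 3226 cells without Ly6a. The NK transcription factor Eomes was found in 64.7% against 68.3%. The ILC1 marker Tmem176b was found in 14.1% against 2.67%, and Itga1 in 29.4% against 22.8%. The other listed ILC1 markers were not compared between these cells. Interferon-induced genes were found more often, Isg15 in 31.8% against 12.7% and Ifit3 in 21.2% against 4.96%. So were the granzyme gene Gzmc (28.2% against 4.87%), Thy1 (55.3% against 16.6%) and Ly6e (96.5% against 76.1%), whereas Ly6c2 was found less often (27.1% against 40.0%). These shares are unthinned, the cells with Ly6a were deeper, and the part of depth in the differences was not tested. At 3000 UMIs per cell, and among cells without the rarely found markers, those with 2 or more UMIs of the 6 interferon genes held 34 Ly6a UMIs in 328 cells of 14-day lung (34.6 CPM, 23.9 to 48.3). Those with none of them held 16 in 2362 cells (2.26 CPM, 1.29 to 3.67).

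**Figure D5:**
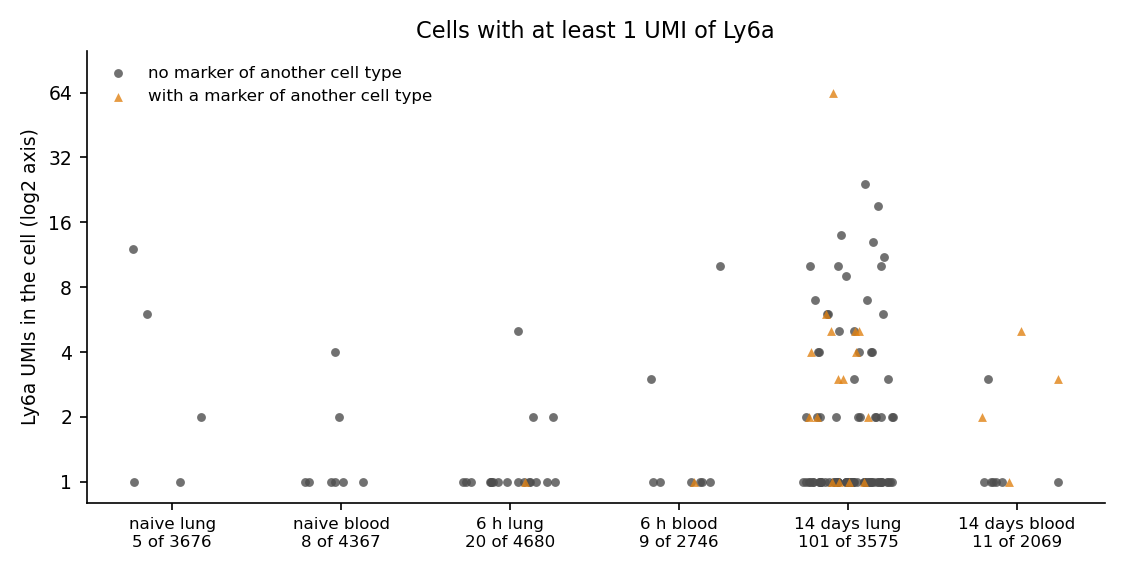
Ly6a UMIs (vertical axis, log2) in each cell with at least 1, by group, with the number of such cells among all cells of the group. Triangles are cells with a rarely found marker of another cell type. The 101 cells of 14-day lung reach 64 UMIs, and that highest cell is a triangle.

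Of 41 listed genes of the Ly6 and uPAR family, 37 were in the files, and the members Ly6c2, Ly6e and Ly6a and the gene Plaur reached 5 CPM in a group. Plaur, the GPI-anchored receptor of urokinase, was at 9.93, 7.99 and 8.27 CPM in lung of naive, 6 h and 14-day mice and at 0.167, 0.317 and 0.709 CPM in blood, higher in lung in all 3 libraries, which none of the 4 members was. The other 33 stayed under 5 CPM and 14 of them had 0 UMIs. Genes that build and attach the GPI anchor (28 in the files, 4 to 7 of them measured at 50 CPM or more) were within 1.5-fold in all 7 comparisons, with medians of -0.20 to 0.08. Among other GPI-anchored proteins (29 in the files, 3 to 5 measured), 14-day over naive lung gave 1 of 4 past 1.5-fold higher, Bst2, and 2 lower, with a median of -0.16 against -0.25 for all genes. The NKG2D ligand gene Raet1e was 63.6 CPM in 14-day against 171 in naive lung (log2 -1.42) and Cd48, a ligand of the receptor 2B4, 232 against 353 CPM (-0.61), the opposite direction from Ly6e. Cd52, a small leukocyte glycoprotein, was at 2679 against 2181 CPM (0.30).

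Genes induced by interferon were set beside Ly6e. In 14-day over naive lung 4 of 23 measured ones were past 1.5-fold higher and 0 lower (all genes 4.47 and 13.4%), with a median of 0.34 against -0.25 for all genes. The antiviral GPI protein gene Bst2 (90.1 against 33.3 CPM, log2 1.44) and the ubiquitin-like Isg15 (1.28) had the highest ratios, and Samd9l (-0.38) and Gbp8 (-0.27) the lowest. At 6 h, when Ly6e was already past 1.5-fold in both tissues, 0 of 19 in lung and 0 of 22 in blood were called (all genes 0.231 and 0.128% higher), with a median of 0.20 in lung, against -0.09 for all genes, and of -4.33e-05 in blood, against -0.07. Lung over blood gave 0 of 22 higher and 4 lower in naive mice (Ifi47 lowest, -0.78) and 4 of 23 higher and 0 lower at 14 days (Bst2 highest, 1.35). Over all genes 7.67% were higher and 2.21% lower in naive mice and 6.06% and 3.4% at 14 days. In 14-day over naive blood 0 of 22 were called higher and 1 lower (Herc6, -0.75), with a median of -0.19, where 0.564% and 3.02% of all genes were. The genes of mature NK cells, by contrast, had a median of -0.74 in 14-day over naive lung, with 6 of 11 past 1.5-fold lower, and those of less mature NK cells had 3 of 8 higher and 1 lower, where 13.4% of all genes were lower and 4.47% higher. Lung over blood at 14 days gave 5 of 7 less mature genes higher (median 1.30) and 5 of 11 mature genes lower (median -0.57), where 6.06% of all genes were higher and 3.4% lower. Without metastases the less mature genes also leaned to lung, with 3 of 7 higher and 1 lower in naive mice. At 6 h 2 of 8 were higher and 1 lower, where 7.19% of all genes were higher and 1.8% lower. Of the mature genes 1 of 11 was lower and 0 higher in naive mice, and the same at 6 h. Counts of both lists share their libraries with the members and the study named some of their genes from these data.

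The genes whose levels followed each member most closely over the 6 groups were named by Pearson's correlation of log2(CPM + 1) among 4190 genes of at least 50 CPM in the highest group. Such a correlation over 6 points, of which each pair of tissues shares a library, is a description only. Nearest to Ly6a were Ctla2b (0.983), Hbb-bs (0.982), Gzmc (0.979), Klhl6 (0.974), Gphn (0.974), all at their highest level in 14-day lung. Hbb-bs is 1 of the erythroid markers and was found in 0.0379% of the cells of all groups. Its 50.7 CPM in 14-day lung thus came from few cells. Nearest to Ly6c2 were Card19 (0.988), Gzma (0.973), Sra1 (0.952), Yeats4 (0.942), Epn1 (0.939), with Gzma encoding granzyme A. Nearest to Ly6e were Vars (0.990), Eef1g (0.982), Pebp1 (0.975), Rpl7a (0.970). Nearest to Thy1 were Nfkbid (0.996), Gbp4 (0.978), Tapbpl (0.942), Larp1 (0.930), Rhoh (0.922). The choice depended on the measure, and with genes from 10 CPM upward 0, 3, 2 and 2 of the 5 stayed among the nearest for Ly6a, Ly6c2, Ly6e and Thy1.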

How the data were processed

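The authors deposited UMI counts (unit count, whole numbers, not normalized) for genes and hashtags over all barcodes of 3 libraries, made with Cell Ranger on GRCm38.p6. The labels name version 7.0.1 and the matrix headers 7.1.0. Barcodes with 800 to 5000 genes and at most 6% mitochondrial counts were kept, and tissue was taken from the hashtag with at least 90% of the tag counts, which left out 342 naive, 158 6 h and 141 14-day barcodes with both tags or neither. No doublet caller was run, so doublets within a tissue remain. The members and lists were chosen with earlier results of these data known.

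Counts were summed per library and tissue and divided by the summed counts of all genes (CPM). Intervals are 95% exact Poisson intervals of counts, exact Clopper-Pearson intervals of shares and exact conditional intervals of ratios, and they cover counting error only. With 1 library a group there is no test and no p-value. A list gene was called past 1.5-fold among genes of at least 50 CPM in the higher group. For shares, gates and pairs each cell was thinned to 3000 UMIs without replacement (seed 1), and the 6 to 86 cells a group under this depth were left out. For a ratio of summed counts, a side without any UMI was set to 3 UMIs. Only in the alternatives of processing did summed counts of at most 3 UMIs on both sides give no ratio. An upper limit of free RNA was set for each library by comparing genes of foreign cell types between cells and near-empty droplets (100 counts or fewer), at 3.42, 4.46 and 3.29% of UMIs (naive, 6 h, 14 days). It is the lowest of the 95% upper limits of single genes with at least 50 counts in those droplets. As the lowest of many, it is no 95% limit itself and may be too low. Summing, intervals and ratios were tested on counts simulated from Poisson distributions. That checks the calculation and cannot show how well the intervals hold for real counts, which spread more between cells.

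Named besides the members are, from each list and comparison described, genes among the highest or lowest pair of ratios, family genes of at least 5 CPM, the 5 genes most like each member, the gate genes and markers a result turns on. Of the genes this rule names, 2 are not reported here. In 14-day lung, genes compared in cells with and without Ly6a were picked after their values were seen. Sequences and positions came from GENCODE M21, while the methods name M23 of the same build. Python 3.11.15, numpy 2.4.6, scipy 1.17.1, pandas 2.3.3, Biopython 1.88 (alignment), scikit-image 0.26.0 (Otsu thresholds) and matplotlib 3.10.9 were used. Alternatives were other cell filters, hashtag rules, scalings, thinning, free RNA subtraction, cells left out, a 2-fold limit and a minimum of 10 CPM. The single cell of 14-day lung with the most Ly6a and the cells with rarely found markers were left out as alternatives chosen after seeing the data.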

Additional observations from a re-analysis of the deposited data

Results flagged for a closer look

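The log2 ratio of 14-day over naive cells had opposite signs in lung and blood for 2 genes. It was -0.41 in lung and 0.55 in blood for Ly6c2, and 0.40 and -0.25 for Thy1. Relative to the median of all genes Ly6c2 kept both signs, while Thy1 in blood was at -0.05. Over the alternatives of processing Thy1 ranged from 0.19 to 0.65 in lung and from -0.38 to 0.28 in blood. Lung over blood also changed sign between naive or 6 h mice and 14-day mice. For Ly6c2 it was 0.24 in naive, 0.12 in 6 h and -0.73 in 14-day mice. For Ly6e it was -0.44, -0.29 and 0.61, and for Thy1 -0.45, -0.22 and 0.19. With 1 library per time point none of these differences between tissues or times was tested.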

How the results depend on the processing

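The number of members past 1.5-fold depended on the setting in 6 of 7 comparisons, since several ratios lay near the limit. Of the alternatives for these counts, 90 stayed within 1.5 times the count and 15 moved. Leaving out cells with any marker of another cell type, which kept 131 to 438 cells a group, gave 1 in place of 0 for lung over blood in naive mice and 0 in place of 2 at 14 days. The latter was 1 with each cell weighted equally, thinned to 3000 UMIs or without the 5% deepest cells, since Ly6e then fell under 1.5-fold. For 14 days over naive it was 2 in place of 1 in lung with median-of-ratios scaling (Thy1 joined), and in blood 2 with that scaling, with totals without mitochondrial and ribosomal genes or with stricter limits on genes and mitochondrial counts per cell (Ly6c2 joined). In blood it was 0 with free RNA subtracted or without cells with rarely found markers. A 2-fold limit gave 0 in lung over blood at 14 days, in both comparisons of 6 h and in 14-day blood.

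Of the 385 single ratios under these alternatives, 372 kept their sign. Of the 13 that did not, 3 were of Ly6a, 6 of Ly6c2 at 6 h in lung, whose ratio was near 0, and 4 of Thy1, all without the cells with any marker. In 14-day over naive lung Ly6e ranged from 1.65 to 1.92, Ly6c2 from -0.43 to -0.16 and Thy1 from 0.19 to 0.65. Ly6c2 of lung over blood at 14 days ranged from -0.76 to -0.47. With 5000 UMIs per cell 11 of 18 gate ratios moved by less than their interval and 7 by more, with no change of sign. With a minimum of 10 CPM, 7 of 14 background shares moved. Shares of cells followed the depth, and 35 of 48 moved at a lower or higher depth.

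No paired analysis was possible because each group is 1 library and no test was made. The replicate error is not known, and a level of Ly6a outside 14-day lung rests on 12 to 26 UMIs.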
